A study of Mus musculus with 14 samples.

Results

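The transcripts described here are the 34 genes of the mitochondrial protein import machinery, of the 18507 genes listed in either of the study's 2 count tables. They were taken as every row whose symbol begins with Tomm or Timm, together with Pam16, Dnajc15, Dnajc19, Grpel1, Grpel2, Pmpca, Pmpcb, Samm50 and Romo1, and all 34 stood in both tables. By role they were 9 genes of the TOM complex or of import at the outer membrane, 1 of barrel-protein sorting (Samm50), 6 of the TIM23 channel, 6 of the presequence motor, 2 of the TIM22 carrier translocase, 7 small TIM chaperones and 2 subunits of the processing peptidase. The last member, Timmdc1, carries a Timm symbol but is known as an assembly factor of respiratory complex I.

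RNA was sequenced from mouse oocytes at the germinal vesicle (GV) stage, the fully grown oocyte arrested in meiotic prophase, and from oocytes after ovulation. All mice carried floxed Mff alleles (Mff fl/fl). The WT groups had no Cre, and the conditional knockout (CKO) groups also carried Gdf9-Cre. Its promoter is used to drive recombination in oocytes and not in the follicle cells around them. Whether the somatic tissue of these ovaries kept Mff was not measured. At the GV stage 4 WT and 4 CKO libraries were sequenced, and after ovulation 3 of either genotype. The labels class the libraries as single-cell RNA, and the sources used here give no age, strain or number of oocytes and animals behind a library. The p-values therefore speak only of how far these libraries spread, which may be technical.

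Most mitochondrial proteins are made in the cytosol and enter through the TOM complex of the outer membrane, in which Tomm20, Tomm22 and Tomm70a act as receptors and Tomm40 forms the channel. Proteins with an N-terminal presequence then pass the TIM23 channel of the inner membrane, are pulled in by a motor built around mitochondrial HSP70, and are cut by the processing peptidase. Carrier proteins of the inner membrane take another way, escorted across the intermembrane space by small TIM chaperones to TIM22. Growing oocytes store such transcripts, and the stock is used and degraded during maturation while transcription is silent.

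Library totals lay between 26575600 and 28847400 counts, and levels below are CPM (counts scaled to library size) on 1 TMM scale over the 14 libraries unless FPKM is named. Values of cell type markers are an exception, given as CPM of the library total without TMM factors. Mff itself was far lower in every CKO library. GV libraries had 925, 477, 653 and 945 CPM in WT and 30.1, 38.2, 47.2 and 42.9 CPM in CKO, and ovulated libraries 308, 304 and 688 CPM in WT and 31.3, 43.4 and 54.4 CPM in CKO. Of 12 oocyte markers all were listed and above 0 in every library (summed, 15433 to 33328 CPM). In GV oocytes 3 libraries stood apart by a flatter distribution, with 35.2% (CKO 1), 38.1% (WT 2) and 42.4% (CKO 2) of counts in the 100 most abundant genes against 48.2% to 51.1% in the others. Among ovulated libraries this share ran from 25.0% (CKO 2) to 35.4% (WT 3), the libraries at opposite ends of the leading principal component.

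Levels differed widely between members. Per transcript length, in deposited FPKM, the highest means in GV WT oocytes were those of Timm9 (669), Timm17a (632), Pam16 (487), Timm8b (257) and Timm23 (232). These encode a chaperone of carrier proteins, the paired TIM17 subunit of the channel, a regulator of the motor, another small TIM and the channel protein itself. At the other end Tomm40l, Timm22, Tomm70a, Pmpca, Tomm5 and Timm29 each had a mean under 1 FPKM. The order was different after ovulation: in ovulated WT oocytes Romo1 (667 FPKM), Timm8b (574), Timm23 (447) and Pam16 (218) led, while Timm9 stood at 61.5 and Timm17a at 17.0 FPKM. In ovulated CKO oocytes Timm9 was back among the 5 highest, at 385 FPKM, and Tomm6 was sixth at 121 FPKM against 15.7 in ovulated WT oocytes. The length that count and FPKM together imply was as short as 240 bases for Romo1, whose annotated transcript has 569 bases. For Timm17a it was 687 bases against 7280, so FPKM ranks depend on the authors' length.

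**Figure D1:**
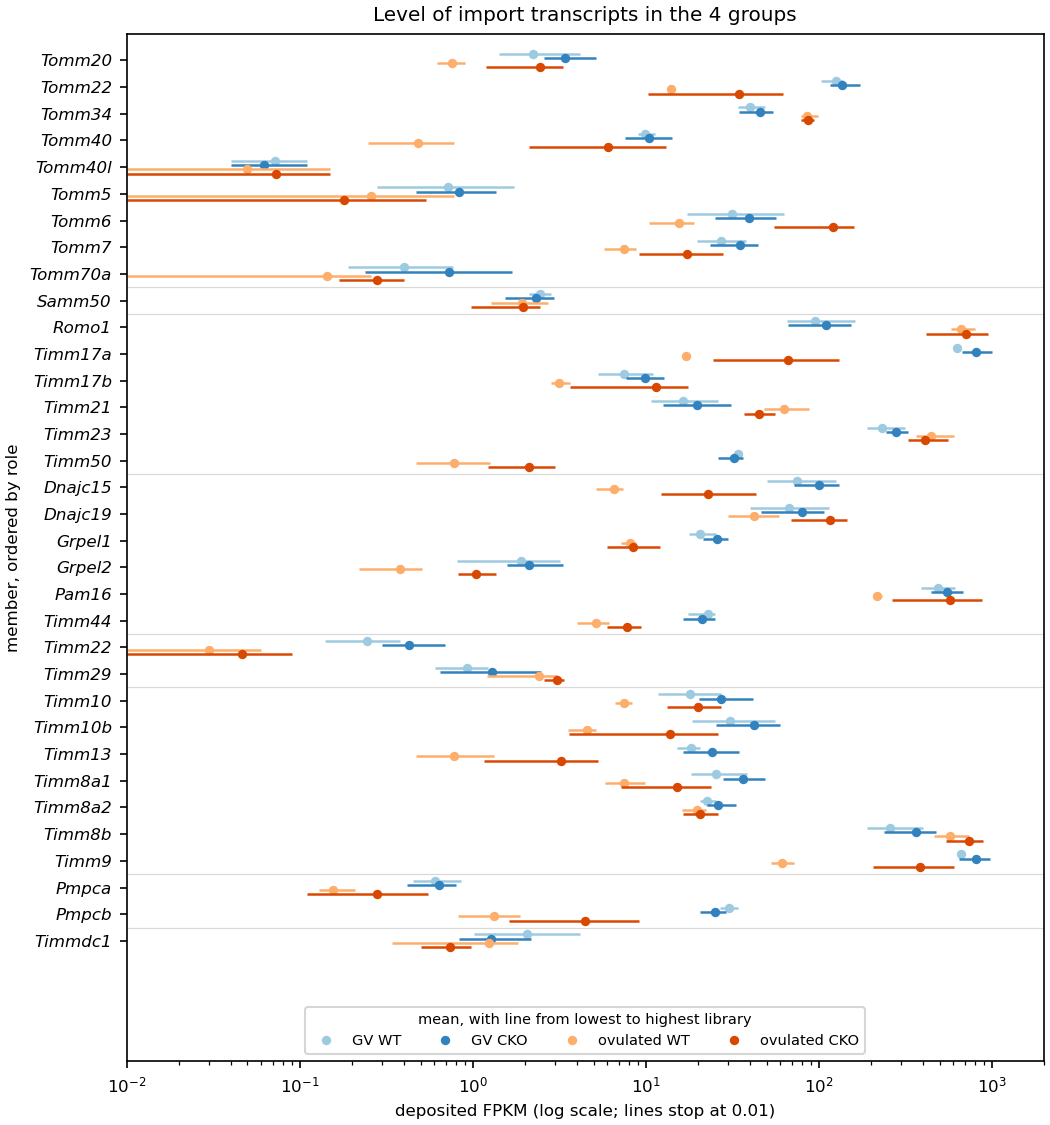
Deposited FPKM of the 34 members, ordered by role, in the 4 groups: points are group means and lines run from the lowest to the highest library, on a log axis. Timm9 and Timm17a lie above 600 FPKM in GV WT oocytes and at 61.5 and 17.0 FPKM in ovulated WT oocytes, while Romo1, Timm8b and Timm23 are the highest members there.

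The first question was whether import transcripts differed between CKO and WT oocytes at the GV stage. None of the 32 members tested was called, in either direction (edgeR quasi-likelihood test, adjusted p under 0.05), where the background was 0.00813% of 12298 genes higher and 0.00813% lower. Before adjustment, 2 members were higher and 1 lower at p under 0.05, where 403 of the 12298 genes were higher and 416 lower, and DESeq2 called 0 members. The smallest of these p-values belonged to Timmdc1 (log2 fold change -0.87, SE 0.35, adjusted p = 0.704). The other two were Timm8a1 at 0.41 (SE 0.17, adjusted p = 0.724) and Tomm20 at 0.53 (SE 0.24, adjusted p = 0.744). Groups did not overlap for Timm8a1 alone, with 25.9, 32.3, 28.1 and 29.7 CPM in WT and 39.1, 45.1, 36.8 and 35.3 CPM in CKO; 2.39% of all genes lay higher without overlap, and 1.81% lower, where 0 members did. The point estimate was above 0 for 24 of 32 members, against 6503 of the 12298 genes, with a median of 0.17 against 0.03 over all genes. With the trend over gene length removed in each library these medians were 0.09 and 0.01. As fitted, all 7 small TIM chaperones were among the members above 0, from 0.07 to 0.51. Tomm5 and Tomm40l were too low to be tested. Leaving out the 3 libraries that stood apart also gave 0 called members.

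The most abundant member of each role overlapped between genotypes in GV oocytes. Timm17a, the main TIM17 paralog, had 593, 368, 524 and 609 CPM in WT and 458, 755, 665 and 561 CPM in CKO. Pam16 of the motor had 178, 159, 187 and 192 CPM in WT and 145, 234, 220.4 and 169.9 CPM in CKO. For the receptor Tomm22 the libraries had 139, 89.8, 99.1 and 152 CPM in WT and 75.9, 151, 144 and 113 CPM in CKO. In each of these the lowest WT library was WT 2 and the lowest CKO library CKO 1, both among the libraries that stood apart. The peptidase subunit Pmpcb had 52.5, 32.2, 53.5 and 65.6 CPM in WT and 22.3, 37.4, 48.1 and 49.0 CPM in CKO. Samm50 had 9.76, 5.77, 11.2 and 12.3 CPM in WT and 7.44, 5.53, 8.17 and 11.9 CPM in CKO, and Timm29 2.59, 3.05, 2.80 and 4.53 CPM in WT and 5.77, 2.66, 2.56 and 4.62 CPM in CKO. Timmdc1 had 4.18, 5.96, 2.21 and 3.41 CPM in WT and 3.01, 1.77, 2.31 and 1.54 CPM in CKO. Here too no gene had separate groups.

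In ovulated oocytes 8 of 31 tested members were higher in CKO than in WT and 0 were lower, where 6.44% of 12010 genes were called higher and 1.4% lower. The 8 were Tomm40 (10.3-fold), Tomm6 (6.72-fold), Timm9 (5.27-fold), Timm17a (3.25-fold), Timm17b (3.17-fold), Tomm20 (2.81-fold), Dnajc19 (2.34-fold) and Pam16 (2.23-fold). By role they were 3 of 7 tested genes of the TOM group, 2 of 6 of the TIM23 channel, 2 of 6 of its motor and 1 of 7 small TIM chaperones. The median log2 fold change over the 31 members was 1.04, against -0.00 over all genes, and 23 of 31 were above 0, against 5997 of 12010 genes. Without overlap between groups 10 members were higher and 0 lower, where 15% of all genes were higher without overlap and 14.1% lower. The filter on low counts left out Tomm5, Tomm40l and Timm22, which had at most 11 counts in any ovulated library. It was set on counts of either group, so a member such as Tomm40, low in WT, entered through its CKO libraries; with no filter all 8 were called and Dnajc15 joined them.

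**Figure D2:**
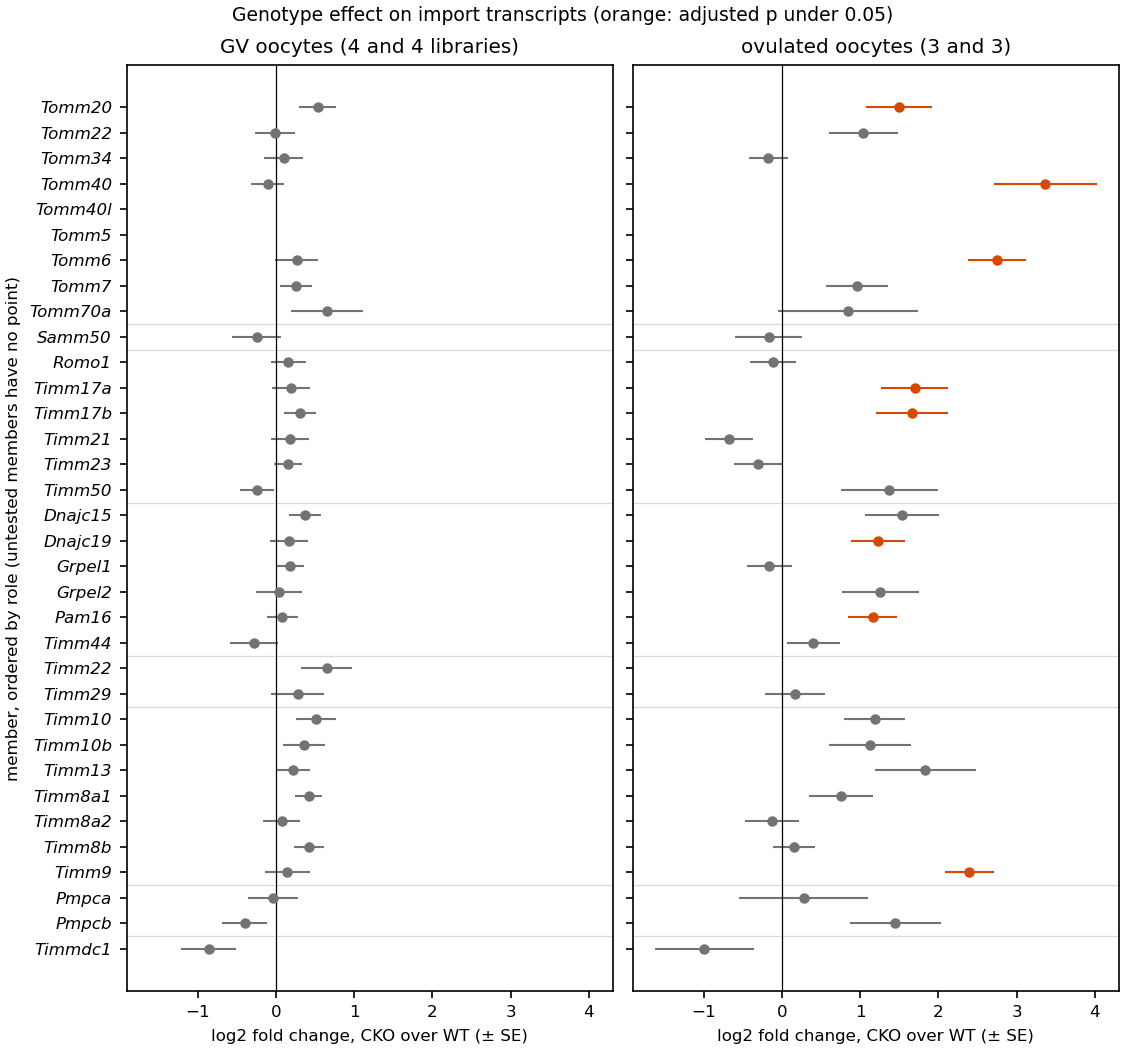
Log2 fold change of CKO over WT (point) with its SE (line) for each tested member, in GV oocytes (left, 4 against 4 libraries) and ovulated oocytes (right, 3 against 3), orange where the adjusted p was under 0.05. No point is orange in GV oocytes, and 8 are in ovulated oocytes, from 1.16 (Pam16) to 3.37 (Tomm40).

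At the outer membrane, the channel gene Tomm40 (Entrez 53333, chromosome 7, 19701313 to 19715442 in the RefSeq annotation of GRCm38.p6, as for the genes that follow) had a fold of 10.3 that rested largely on CKO 2. It measured 0.901, 0.516 and 0.321 CPM in the ovulated WT libraries, from 29, 16 and 9 counts, and 2.32, 12.1 and 3.21 CPM in the CKO libraries. The CKO libraries were all above the WT libraries, with CKO 2 far above the other two (log2 fold change 3.37, SE 0.66, adjusted p = 0.0058). Without CKO 2 the value was 2.28 (adjusted p = 0.0696), below the 2.68 of Tomm6 in that fit. In GV oocytes Tomm40 had stood at 17.5, 12.8, 14.8 and 18.9 CPM in WT and 15.2, 16.4, 13.4 and 15.1 CPM in CKO, and those groups overlapped. All ovulated CKO libraries lay below every GV library.

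Tomm6 and Tomm7 encode small subunits that hold the TOM complex together, and Tomm6 was the only one of the 8 called members with ovulated CKO libraries above its highest GV library. It measured 11.2, 12.4 and 7.23 CPM in ovulated WT libraries and 33.1, 74.2 and 94.8 CPM in CKO libraries. The groups were well separated (2.75, SE 0.37, adjusted p = 0.000585). GV libraries had 20.1, 38.0, 23.8 and 17.2 CPM in WT and 32.9, 39.9, 24.2 and 22.8 CPM in CKO. Tomm7, by contrast, was not called, at 6.15, 4.52 and 7.37 CPM in ovulated WT and 6.62, 17.0 and 10.6 CPM in CKO (0.95, SE 0.40, adjusted p = 0.158). The coding sequences of both are printed, from GENCODE M21 (GRCm38), because they show how short these membrane subunits are: 74 codons for Tomm6 (chr17:47686646-47688386, minus strand) and 55 for Tomm7 (chr5:23838944-23844161, minus strand), without the stop codon. Capitals mark the start codon, 5′ to 3′.
Tomm6: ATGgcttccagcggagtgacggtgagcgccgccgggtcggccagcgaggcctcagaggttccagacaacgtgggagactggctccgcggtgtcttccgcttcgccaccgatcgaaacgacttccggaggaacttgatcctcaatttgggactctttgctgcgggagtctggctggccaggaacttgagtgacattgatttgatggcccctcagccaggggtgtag
Tomm7: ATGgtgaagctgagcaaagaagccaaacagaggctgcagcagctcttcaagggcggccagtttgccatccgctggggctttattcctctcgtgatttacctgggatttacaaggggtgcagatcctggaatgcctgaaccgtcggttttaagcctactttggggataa
Of the exonic bases of Tomm6, 76.0% are shared with Gm21981, an annotated model on the same strand, and 8.22% with Usp49 on the opposite strand. Gm21981 is not used here. Usp49 did not pass the test (0.15, adjusted p = 0.808), and reads of Tomm6 and Gm21981 cannot be told apart where they share bases.

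Among the receptors, which bind precursor proteins at the surface, Tomm20 (Entrez 67952, chromosome 8, 126930664 to 126945921) was called higher in ovulated CKO than in ovulated WT oocytes. Its ovulated WT libraries had 3.63, 2.58 and 3.42 CPM and its CKO libraries 4.58, 9.11 and 12.9 CPM. The groups did not overlap, with CKO 1 just above the WT range (1.49, SE 0.42, adjusted p = 0.0426). The call of Tomm20 was lost in 5 of the 6 fits without a single ovulated library (adjusted p up to 0.185). Its GV libraries had 10.8, 16.8, 8.26 and 11.9 CPM in WT and 19.6, 16.4, 16.4 and 16.9 CPM in CKO, and overlapped. Tomm22, the central receptor and the member with the highest GV FPKM of this complex, measured 9.57, 9.75 and 11.2 CPM in ovulated WT and 6.79, 34.2 and 20.2 CPM in CKO. Its CKO 1 library was below all WT libraries, and it was not called (1.04, SE 0.44, adjusted p = 0.168). Tomm70a, the receptor for carrier precursors, was at 0.0356 to 1.17 CPM in ovulated libraries (0.85, SE 0.90, adjusted p = 0.628). The cytosolic factor Tomm34 had -0.18 (SE 0.25, adjusted p = 0.733). Samm50, which inserts barrel proteins into the outer membrane, had 7.52, 5.00 and 3.92 CPM in ovulated WT and 6.33, 5.33 and 2.58 CPM in CKO, overlapping groups (-0.17, SE 0.43, adjusted p = 0.858).

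In the inner-membrane channel the transcripts of both TIM17 paralogs were called higher as fitted, and that of the TIM23 protein was not called. Timm17a (Entrez 21854, chromosome 1, 135301535 to 135313737) had 10.4, 10.4 and 11.2 CPM in ovulated WT libraries and 14.1, 62.3 and 25.2 CPM in CKO libraries. The WT libraries were nearly equal and the CKO libraries spread above them (1.70, SE 0.43, adjusted p = 0.0247). Without CKO 2 the log2 fold change was 0.92 (adjusted p = 0.194). Timm17b (Entrez 21855, chromosome X, 7899336 to 7907652) had 3.51, 3.71 and 5.02 CPM in WT and 4.38, 17.7 and 15.9 CPM in CKO. It was the only called member with overlapping groups, since CKO 1 lay inside the WT range (1.66, SE 0.46, adjusted p = 0.0381). Of the 6 fits without a single ovulated library, 5 lost the call of Timm17b and 4 that of Timm17a. Both calls also ended with the trend over length removed (Timm17b 1.60, adjusted p = 0.0523, and Timm17a 1.02, adjusted p = 0.121). In GV oocytes Timm17b had 11.3, 13.7, 13.8 and 12.3 CPM in WT and 12.2, 20.8, 15.1 and 16.0 CPM in CKO, which overlapped. Timm23 measured 302, 303 and 538 CPM in WT and 270.2, 212 and 425 CPM in CKO (-0.31, SE 0.31, adjusted p = 0.607). Of the other channel genes, Timm50, the receptor of the channel, had 1.37 (SE 0.62, adjusted p = 0.198), Timm21, which links TOM and TIM23, -0.69 (SE 0.31, adjusted p = 0.193) and Romo1, a small membrane subunit, -0.12 (SE 0.29, adjusted p = 0.853).

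The motor pulls presequence proteins into the matrix, and 2 of its 6 genes were called higher, Pam16 and Dnajc19, against 6.44% of all genes. Both calls ended with the trend over length removed (Pam16 -0.04, adjusted p = 0.930, and Dnajc19 0.34, adjusted p = 0.433). As fitted, 5 of the 6 fits without a single ovulated library lost the call of Pam16 and 4 that of Dnajc19. Pam16 (Entrez 66449, chromosome 16, 4616466 to 4624946), a regulator of the J-protein that stimulates HSP70, had 62.2, 69.99 and 64.6 CPM in ovulated WT libraries and 74.5, 199 and 156 CPM in CKO libraries. All CKO libraries were above WT, CKO 1 by little (1.16, SE 0.31, adjusted p = 0.0327). Dnajc19 (Entrez 67713, chromosome 3, 34057280 to 34081354), a J-protein of the motor, had 12.2, 15.4 and 25.8 CPM in WT and 26.6, 46.9 and 49.1 CPM in CKO. The highest WT library lay just under the lowest CKO library (1.23, SE 0.34, adjusted p = 0.0381). Its GV libraries overlapped, with 26.03, 43.2, 39.6 and 26.5 CPM in WT and 39.3, 49.5, 38.6 and 25.3 CPM in CKO. The related J-protein Dnajc15 had 2.80, 2.74 and 2.07 CPM in WT and 4.50, 12.8 and 4.20 CPM in CKO, separate groups that missed the threshold (1.53, SE 0.47, adjusted p = 0.0592). For the nucleotide exchange factors the values were 1.26 for Grpel2 (SE 0.50, adjusted p = 0.138) and -0.16 for Grpel1 (SE 0.29, adjusted p = 0.787), and for Timm44, which tethers HSP70 to the channel, 0.40 (SE 0.34, adjusted p = 0.522).

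Of the 7 small TIM chaperones 1, Timm9 (Entrez 30056), was called higher in ovulated CKO than in ovulated WT oocytes, against 6.44% of all genes. Timm9 measured 39.4, 33.6 and 30.9 CPM in ovulated WT libraries and 105, 255 and 174 CPM in CKO libraries. Every CKO library exceeded the highest WT library by more than the WT libraries differed (2.40, SE 0.31, adjusted p = 0.000468). In GV oocytes it had 579, 340.1, 519 and 568 CPM in WT and 319.9, 657, 691 and 592 CPM in CKO. Its partner Timm10, with which Timm9 forms the chaperone ring for carrier proteins, had 2.61, 3.07 and 3.45 CPM in ovulated WT and 4.93, 8.33 and 7.06 CPM in CKO. Those groups were separate too, and the change missed the threshold (1.19, SE 0.39, adjusted p = 0.0758). Timm13 had 1.83 (SE 0.65, adjusted p = 0.0973), Timm10b 1.12 (SE 0.52, adjusted p = 0.211) and Timm8a1 0.76 (SE 0.41, adjusted p = 0.287). Values near 0 were seen for Timm8a2 (-0.13, SE 0.34, adjusted p = 0.864) and Timm8b (0.15, SE 0.27, adjusted p = 0.783).

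The coding sequences of Timm9 and Timm10 are shown because both hold the cysteine pairs that define this family. They come from GENCODE M21: Timm9 from chr12:71123173-71136684 on the minus strand (89 codons) and Timm10 from chr2:84826997-84830213 on the plus strand (90 codons). Capitals mark the 4 cysteine codons, at codons 28, 32, 48 and 52 of Timm9 and 29, 33, 50 and 54 of Timm10, counted from the start codon.
Timm9: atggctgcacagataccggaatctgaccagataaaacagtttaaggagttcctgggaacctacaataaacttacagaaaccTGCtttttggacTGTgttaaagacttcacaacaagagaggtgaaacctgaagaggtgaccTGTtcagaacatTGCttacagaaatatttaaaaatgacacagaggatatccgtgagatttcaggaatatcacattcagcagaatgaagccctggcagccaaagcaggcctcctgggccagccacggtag
Timm10: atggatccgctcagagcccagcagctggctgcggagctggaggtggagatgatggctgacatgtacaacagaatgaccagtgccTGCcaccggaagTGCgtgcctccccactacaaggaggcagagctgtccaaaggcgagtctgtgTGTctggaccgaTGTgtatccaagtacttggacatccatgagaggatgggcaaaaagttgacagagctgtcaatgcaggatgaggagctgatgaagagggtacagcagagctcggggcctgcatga
All 7 small TIM genes hold 2 such pairs, each with 3 codons between the cysteines, whereas Tomm34, Tomm40 and Timm44 hold 1 pair and the other 24 members 0. The motif was thus shared by the chaperone that passed the test and by the 6 that did not.

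The remaining roles gave no call in ovulated oocytes. Pmpcb, the catalytic subunit of the peptidase that removes presequences, had 1.52, 1.00 and 2.46 CPM in WT and 1.80, 8.58 and 2.94 CPM in CKO, with overlap (1.45, SE 0.58, adjusted p = 0.147). Its partner Pmpca stayed under 1 CPM in every ovulated library (0.27, SE 0.83, adjusted p = 0.885). Timm29, a subunit of the carrier translocase, had 7.70, 7.81 and 3.38 CPM in WT and 7.68, 6.78 and 6.16 CPM in CKO, which overlapped (0.17, SE 0.39, adjusted p = 0.846). Timmdc1 had 2.89, 2.55 and 0.605 CPM in WT and 1.09, 1.24 and 0.601 CPM in CKO (-0.997, SE 0.63, adjusted p = 0.376).

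**Figure D3:**
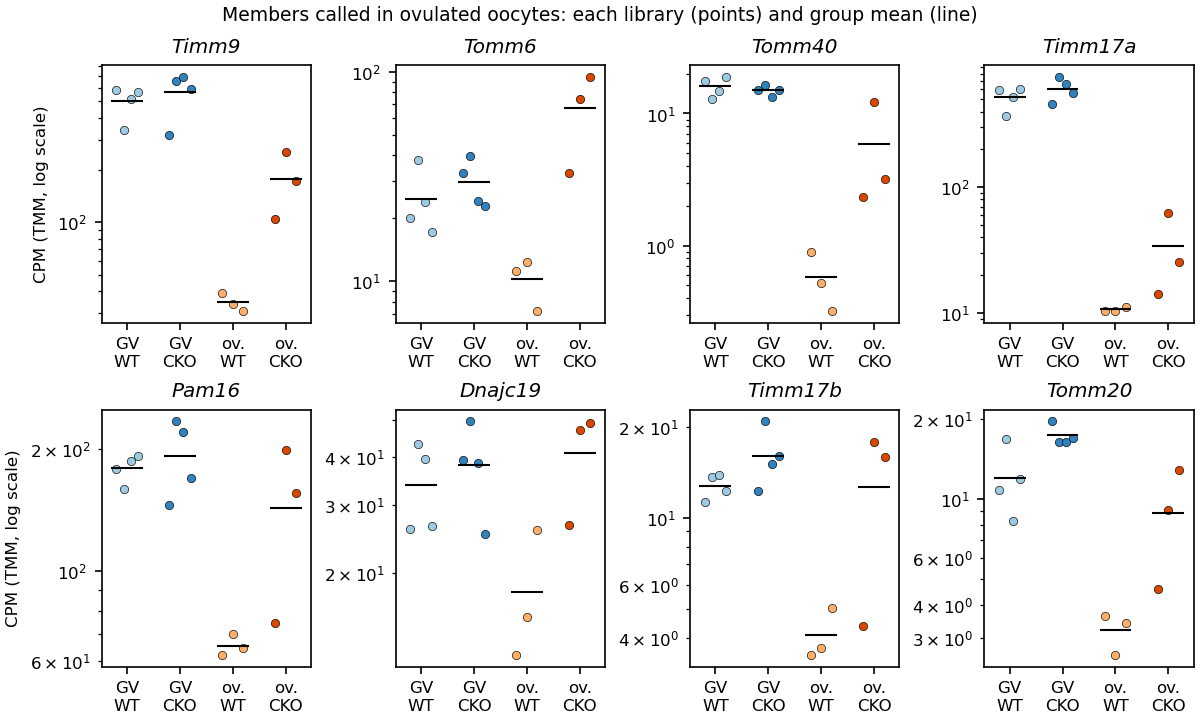
Level of the 8 members called in ovulated oocytes in each of the 14 libraries (points, CPM on log axes) with the group mean (line). Ovulated CKO libraries lie above ovulated WT libraries for every gene but Timm17b, and Tomm6 alone reaches 94.8 CPM in ovulated CKO against at most 39.9 CPM in GV oocytes.

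The genotype difference of the called members was uneven over the CKO libraries. All 8 called members were lowest in ovulated CKO 1 among the 3 CKO libraries, 5 were highest in CKO 2 and 3 in CKO 3. In a principal component analysis of the ovulated libraries the leading axis carried 50.3% of variance, and along it CKO 1 at -14.1 lay nearest to the WT libraries (38.9 to 62.6) and CKO 2 at -85.4 farthest. Without CKO 2 the members called fell to 2, Timm9 and Tomm6, and the other 6 missed the threshold. Without CKO 1 there were 15, without CKO 3 there were 5, and without WT 1, WT 2 or WT 3 there were 3, 3 and 4. Calls over all genes, in either direction, moved as well. They were 341 of 12296 without CKO 2 and 1652 of 12431 without CKO 1, against 942 of 12010 as reported. Without CKO 3 they were 765, and without WT 1, WT 2 or WT 3 they were 514, 565 and 461. Timm9 and Tomm6 were called in all 6 of these fits, with adjusted p at most 0.00764 and 0.00893. Of 16 granulosa and cumulus markers 12 were listed in ovulated oocytes, and their sum was 94.2 to 108 CPM in WT and 71.8 to 92.1 CPM in CKO libraries, most of it Cyp19a1 (52.9 to 91.6 CPM), while Amh, Inha, Fst and Foxl2 were not listed. Of 6 stromal and endothelial markers 4 were listed (82.6 to 136 CPM in WT, 52.3 to 100.3 in CKO). Most of this sum was Pecam1 (49.3 to 130 CPM), while Col1a2 and Cdh5 were not listed. Of 9 blood and immune markers 5 were listed (1.62 to 5.09 CPM in WT and 2.72 to 5.39 CPM in CKO). These sums lack the TMM factors, which ran from 1.05 to 1.18 in ovulated WT and from 1.23 to 1.47 in ovulated CKO libraries. The part of these lists and of library composition in the genotype difference was not tested.

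Import genes are short, and length moved with the genotype difference over all genes. The median coding sequence of the 34 members was 517.5 bases against 1179 over all protein-coding genes, and 408 bases for the 8 called members against 642 for the other 26. Of the genes in the shortest of 5 equal classes by the length that count and FPKM imply, 19.3% were called higher in ovulated CKO oocytes, against 1.28% in the longest class. Of the 31 tested members 17 lay in the shortest class, and 5 of these 17 were called. In GV oocytes the shortest class held 17 of the 32 tested members, and its median log2 fold change over all its genes was 0.14. With the trend over length removed in each ovulated library, Timm9 (1.65, adjusted p = 0.00648), Tomm6 (2.09, adjusted p = 0.00804), Tomm40 (3.21, adjusted p = 0.0215) and Tomm20 (1.69, adjusted p = 0.0473) were still called. Timm17b (1.60, adjusted p = 0.0523), Timm17a (1.02, adjusted p = 0.121), Dnajc19 (0.34, adjusted p = 0.433) and Pam16 (-0.04, adjusted p = 0.930) were not. In that fit Romo1 (-1.42, adjusted p = 0.00721) and Timm8b (-0.96, adjusted p = 0.0335), the shortest members by this measure, were called lower, and the median over members was 0.38. With the trend left in, the call of Tomm20 was lost in 5 of the 6 fits without a single ovulated library, and that of Tomm40 in 1. The source of the trend over length was not tested.

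**Figure D4:**
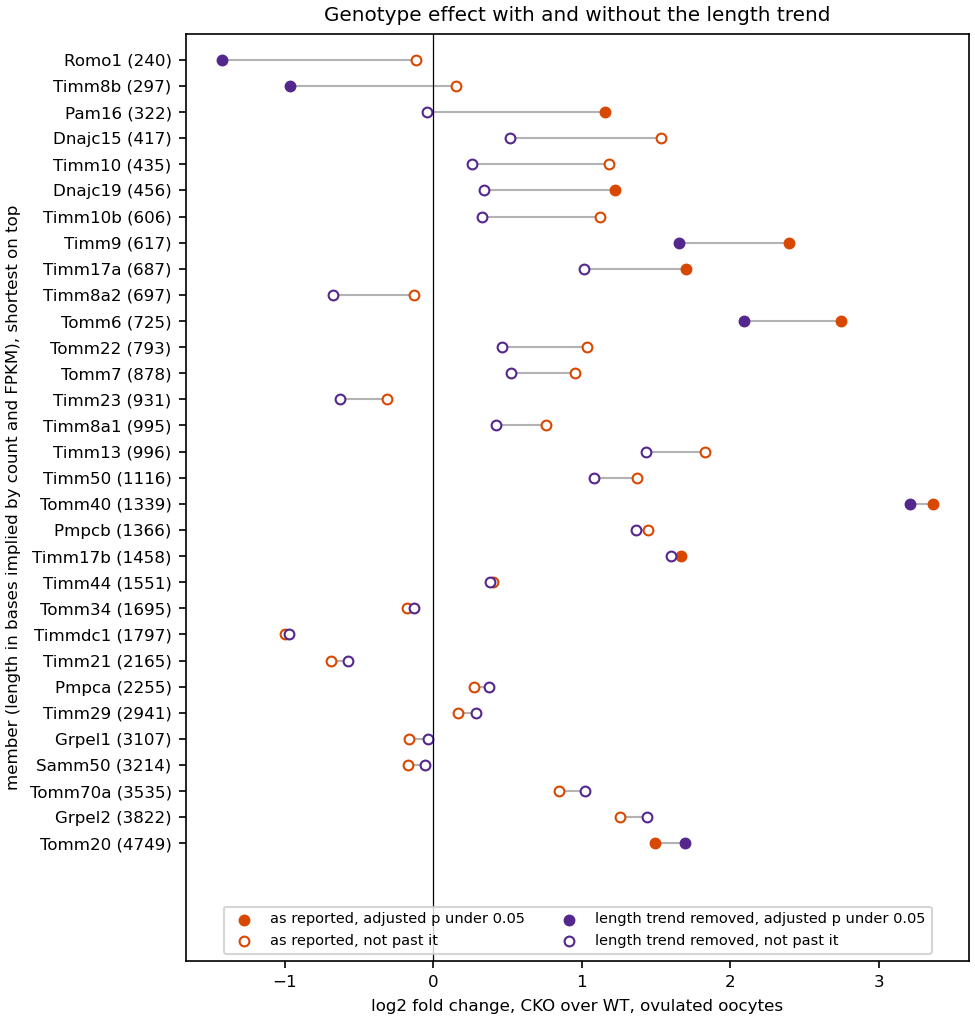
Log2 fold change of CKO over WT in ovulated oocytes for the 31 tested members, shortest on top, as reported (orange) and with the trend over length removed (purple), filled where the adjusted p was under 0.05. The shift is largest at the top, where Pam16 moves from 1.16 to -0.04 and Romo1 from -0.12 to -1.42, while Tomm40 and Tomm20 are filled in both fits.

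Whether the CKO effect itself changed with the stage was tested as an interaction over all 14 libraries. It was called for 3 of 33 members, all with a larger effect in ovulated oocytes, and for 0 in the other direction, where 3.17% of 13199 genes were called higher and 0.0833% lower. Tomm40 had 3.42 (SE 0.66, adjusted p = 0.00872), Tomm6 2.44 (SE 0.50, adjusted p = 0.014) and Timm9 2.19 (SE 0.45, adjusted p = 0.0138). Each passed the test in ovulated oocytes and had a GV estimate near 0, between -0.11 and 0.26. For the other 5 members called in ovulated oocytes the interaction was 0.93 to 1.45 with adjusted p between 0.159 and 0.353, so a difference between stages was not shown for Timm17a, Timm17b, Tomm20, Dnajc19 and Pam16. The median interaction over members was 0.63 against -0.07 over all genes. Timm9 narrowly missed the threshold without ovulated CKO 2 (1.84, adjusted p = 0.0538), and without ovulated CKO 1 the members called were 9. In the fit without ovulated CKO 1, 1006 of 13482 genes were called in either direction, against 430 of 13199 as reported. Under the alternatives other than fits without a single library, the interaction of Tomm6 was lost in 5 of 13 (adjusted p up to 0.204). That of Tomm40 was lost in 2 of 12 (up to 0.253) and that of Timm9 in 2 of 13 (up to 0.0794). On log2(FPKM + 1) only Timm9 was called.

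From GV to ovulated, most import transcripts fell relative to the rest of the transcriptome. In WT oocytes 23 of 33 members were called lower and 5 higher, against 36.2% and 30.3% of 13199 genes, and the median log2 fold change was -1.84 against -0.17 over all genes. In CKO oocytes 20 were called lower and 3 higher, against 31.2% and 23.2% of genes, with a median of -1.51 against -0.19. These comparisons use the same libraries as the genotype tests and are not independent of them. The stages were deposited as separate tables, so stage and anything else that differed between the tables cannot be told apart, and CPM gives shares of a library and not molecules per oocyte. The library method primes on the poly(A) tail, so values count tailed transcripts. Without TMM factors, granulosa and cumulus markers summed to 38.2 to 79.3 CPM in GV and 71.8 to 108 CPM in ovulated libraries. Stromal and endothelial markers summed to 20.6 to 38.2 and 52.3 to 136 CPM, with Pecam1 at 16.2 to 36.2 and 49.3 to 130 CPM. Blood and immune markers summed to 1.32 to 7.38 and 1.62 to 5.39 CPM. The part of these lists in the stage change was not tested.

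The largest falls in WT oocytes were those of Timm50 (-5.88, SE 0.43), Timm17a (-5.62, SE 0.47), Timm13 (-4.96, SE 0.48), Pmpcb (-4.94, SE 0.54) and Tomm40 (-4.77, SE 0.55), with adjusted p of at most 1e-06. Timm17a went from 593, 368, 524 and 609 CPM in GV WT libraries to 10.4, 10.4 and 11.2 CPM in ovulated WT libraries. Its paralog Timm17b went from 11.3, 13.7, 13.8 and 12.3 CPM to 3.51, 3.71 and 5.02 CPM (-1.64, SE 0.38, adjusted p = 0.00106). In deposited FPKM, Timm17a exceeded Timm17b 58.6 to 113-fold in GV WT libraries and 4.66 to 6.05-fold in ovulated WT libraries, so the paralogs came closer. The lengths implied were 687 bases for Timm17a and 1458 for Timm17b, where the annotated transcripts have 7280 and 2381 bases. Their order per length therefore depends on the authors' length. Pmpcb went from 52.5, 32.2, 53.5 and 65.6 CPM to between 1.00 and 2.46 CPM, and Tomm22 from 139, 89.8, 99.1 and 152 CPM to between 9.57 and 11.2 CPM. In each case the stages were far apart in every library. All 6 motor genes and both peptidase genes were called lower in WT oocytes as fitted. With the trend over length removed Dnajc19 (0.48, adjusted p = 0.0875) and Pam16 (0.0799, adjusted p = 0.739) turned direction and were not called, and Dnajc19 was not called on log2(FPKM + 1) either (-0.60, adjusted p = 0.170) or without ovulated WT 1 (-0.72, adjusted p = 0.0957) or WT 2 (-0.84, adjusted p = 0.0669).

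A few members went the other way. Romo1 rose from 23.9, 30.6, 22.4 and 20.3 CPM in GV WT libraries to 129.9, 140.3 and 183 CPM in ovulated WT libraries (2.63, SE 0.28, adjusted p = 4.86e-07), and likewise in CKO oocytes (2.32, SE 0.28, adjusted p = 4.34e-06). Timm8b rose in WT (0.93, SE 0.25, adjusted p = 0.0031) and CKO (0.62, SE 0.25, adjusted p = 0.0414), but the call in CKO was lost in 9 of the 14 fits without a single library. The lowest of these values was 0.43 without ovulated CKO 3 (adjusted p = 0.208), followed by 0.50 without GV CKO 4 (adjusted p = 0.121). Timm21 (1.63, adjusted p = 0.000181), Timm29 (0.96, adjusted p = 0.0272) and Tomm34 (0.70, adjusted p = 0.0283) were called higher in WT oocytes. Timm29 lost this call without GV WT 1, 2 or 3 or ovulated WT 1 or 2 (0.77 to 0.93, adjusted p = 0.0511 to 0.113) and with the length trend removed (0.67, adjusted p = 0.0925). Tomm34 lost it without GV WT 1, GV WT 2 or ovulated WT 3 (0.53 to 0.70, adjusted p = 0.0504 to 0.120) and among genes of at least 10 CPM (0.4998, adjusted p = 0.0740). Timm23 narrowly missed the threshold in WT (0.59, adjusted p = 0.0582) and had 0.09 in CKO (adjusted p = 0.791). It was called higher in WT under several alternatives, among them DESeq2 (0.62, adjusted p = 0.0379), log2(FPKM + 1) (0.93, adjusted p = 0.00328) and the length trend removed (1.66, adjusted p = 6.85e-06), and with that trend removed also in CKO (0.94, adjusted p = 0.00202). The channel thus held members with opposite courses: Timm17a, Timm17b and Timm50 fell in WT oocytes while Romo1 and Timm21 rose.

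Tomm6 was the one member called in opposite directions in the 2 genotypes, lower in WT (-1.27, SE 0.36, adjusted p = 0.00525) and higher in CKO (1.17, SE 0.35, adjusted p = 0.00877). The fall in WT was not called on log2(FPKM + 1) (-0.82, adjusted p = 0.105) or with the trend over length removed (-0.03, adjusted p = 0.938). The rise in CKO missed the threshold without ovulated CKO 3 (0.84, adjusted p = 0.0757). Tomm40 fell in both (-4.77 in WT and -1.35 in CKO, adjusted p = 0.0168), but its fall in CKO was not called without ovulated CKO 1 (-0.97, adjusted p = 0.0789), without ovulated CKO 3 (-1.06, adjusted p = 0.0837) or with the length trend removed (-0.70, adjusted p = 0.179). Both genotypes also had lower levels after ovulation of Timm9 (-3.86 in WT, and -1.67 in CKO, adjusted p = 0.000433). Timm17b was called lower in WT and had -0.34 in CKO (adjusted p = 0.448). Dnajc19 and Pam16, whose WT falls ended with the length trend removed, had 0.10 (adjusted p = 0.812) and -0.43 (adjusted p = 0.207) in CKO. With that trend removed Dnajc19 was called higher in CKO (0.91, adjusted p = 0.00385), and without ovulated CKO 2 Pam16 was called lower there (-0.75, adjusted p = 0.0429).

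**Figure D5:**
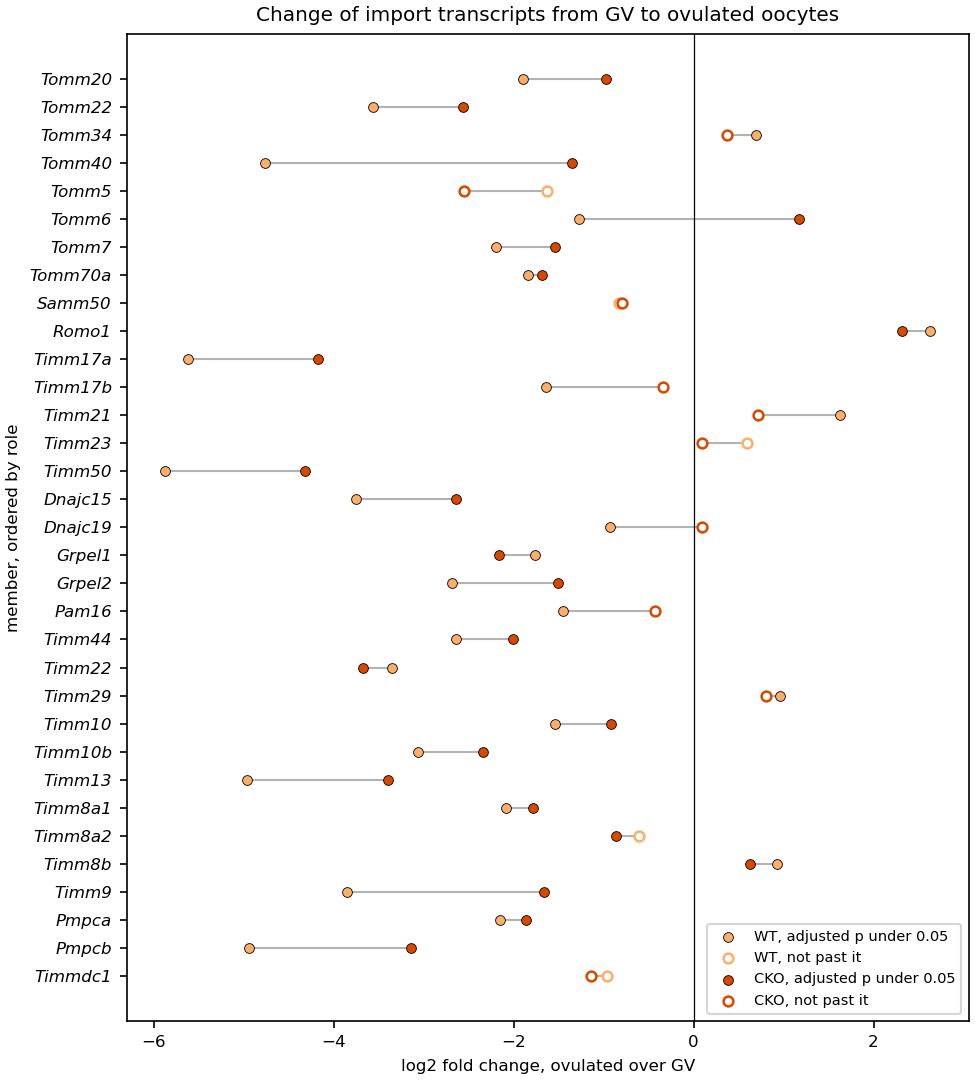
Log2 fold change from GV to ovulated for each of 33 members in WT (light) and CKO (dark) oocytes, filled where the adjusted p was under 0.05, with a line joining the genotypes. Most points lie left of 0, Romo1 lies at 2.63 and 2.32, and Tomm6 is the only member with filled points on both sides.

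Another 16 genes of import and its quality control, such as metaxins, carrier insertases and presequence peptidases, served for comparison. In ovulated oocytes 1 of 15 tested was called higher in CKO and 0 lower, a share near the 6.44% called higher over all genes. This gene was Mtx2, a metaxin that works with Samm50 at the outer membrane. It had 11.6, 12.2 and 7.48 CPM in WT and 18.4, 43.2 and 51.1 CPM in CKO, separate groups (1.88, SE 0.37, adjusted p = 0.00573), and its interaction was called as well (1.79, SE 0.43, adjusted p = 0.0287). The median of the 15 was 0.78, against 1.04 for the members. In GV oocytes 0 of 16 were called, and from GV to ovulated 10 of 16 fell and 2 rose in WT, where 36.2% of all genes fell and 30.3% rose. In CKO 7 of 16 fell and 0 rose, against 31.2% and 23.2% of all genes. Mitochondrial HSP70 itself, Hspa9, had -0.47 in ovulated oocytes (SE 0.24, adjusted p = 0.257).

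Stored oocyte transcripts are often handled through the cytoplasmic polyadenylation element, so the sense strand of the last 100 transcript bases was searched for TTTTAT and TTTTAAT, which do not contain each other. Of the 32 members whose 3′ untranslated region had at least 100 bases 6 held 1 of them (18.8%), against 17.9% of 19280 protein-coding genes with such a window. Among the 7 called members searched the number was 1, Tomm6, and among the other 25 it was 5. A match is a description of letters and not of use. Near-identical copies among annotated transcripts of other genes (at least 95% identity over at least 80% of the coding sequence) were found for 12 members. Among them were Tomm20, Dnajc19, Pam16, Timm17a and Tomm6 of those called, so that their counts could hold reads of a copy. Such copies may include models at the same locus, such as Gm21981 for Tomm6, and copies without an annotated transcript were not searched.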

How the data were processed

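RNA-seq tables of 14 mouse oocyte libraries (4 GV WT, 4 GV CKO, 3 ovulated WT, 3 ovulated CKO) were used, 1 table per stage, each with estimated counts and FPKM made by the authors. The genome build was mm10, per the submitters' processing notes, and the sources used here name no aligner or counter. Of the authors' deposited count values 17.6% (GV) and 18.3% (ovulated) were not whole numbers (tolerance 0.001), so they were treated as estimated counts and rounded. The authors' deposited FPKM served to compare levels between genes.

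Genes were filtered with filterByExpr and scaled by TMM. Each stage was fitted alone, and the interaction and the stages in 1 fit over the genes of both tables, with the quasi-likelihood test of edgeR 4.0.16 (R 4.3.3). P-values were adjusted by Benjamini-Hochberg over all genes tested and called at an adjusted p under 0.05. Alternatives used DESeq2 1.42.0, limma 3.58.1 on counts and on log2(FPKM + 1) or log2(FPKM + 0.1), other filters and scaling, a replicate block, removal of the trend over length, and fits without single libraries. The fits without libraries that stood apart were chosen after seeing the data. The procedure was tested on simulated data. Every member could be named, and values in every library were given for members called in a genotype comparison or the interaction, for the member of each role with the highest mean FPKM in GV WT oocytes, and for some others beside them. The members and lists were chosen with earlier results of these data known. All 34 members matched the RefSeq gene table, and sequences came from GENCODE M21.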

Additional observations from a re-analysis of the deposited data

Results flagged for a closer look

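The genotype effect differed between stages by the interaction test for Tomm40 (3.42), Tomm6 (2.44) and Timm9 (2.19), each larger in ovulated oocytes. None of the 3 was called under every alternative.

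Among GV oocytes, 68 groups of 4 libraries (34 members in both genotypes) were examined for a library far from the other 3, which chance gives in about 1 of 20 groups, and 4 were found. Grpel1 was at 67.3 CPM in WT 2 against 79.7 to 80.3 CPM in the other WT libraries. Timm21 was at 75.0 CPM in CKO 2 against 34.1 to 38.9 CPM. Tomm34 was at 46.5 CPM in CKO 1 against 99.0 to 106 CPM. Tomm40l, near the detection limit, was at 0.135 CPM in WT 3 against 0.249 to 0.257 CPM. WT 2, CKO 1 and CKO 2 are the libraries with the flatter distribution of counts.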

How the results depend on the processing

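In GV oocytes 0 members were called under every alternative run. In ovulated oocytes the 8 members called higher became 5 among genes with a mean of at least 10 CPM, 5 on log2(FPKM + 1), 5 on log2(FPKM + 0.1), 0 on log2(FPKM + 1) without a filter, 4 with the length trend removed, 2 without WT 3 and CKO 2, and 13 in 1 fit over the 4 groups, with 2 to 15 when single libraries were left out. The FPKM fit without a filter called 1 gene of 16488. Members called lower, 0 as reported, became 2 with the length trend removed, Romo1 and Timm8b. With the replicate block as well they were 3, these and Timm23, when 5 members were called higher. Pam16 (ovulated, CKO against WT) reversed in these fits, to -0.0400 with the length trend removed and -0.0513 with the block as well. The interaction gave 5 members with DESeq2, 1 on log2(FPKM + 1) with or without a filter, 1 without the 2 ovulated libraries, and 2 to 9 without single libraries, and for members lower 2 with the length trend removed and 1 with the block as well. From GV to ovulated, members called higher in CKO were 5 with size factors of the RLE method, no filter, DESeq2, limma-voom or the block, 6 in the 3 FPKM fits, 7 with the length trend removed (with or without the block) and 1 to 5 without single libraries (1 without ovulated CKO 3), and members called lower were 13 in the filtered FPKM fits. In WT, members called higher were 3 among genes of at least 10 CPM and 3 to 6 without single libraries (3 without GV WT 1 or GV WT 2). The cause was not tested. RLE size factors moved the median of all genes by 0.11 in the CKO stage comparison.

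Over all genes, the 942 called in ovulated oocytes became 1586 with DESeq2, 1856 with limma-voom, 506 among genes of at least 10 CPM and 1630 with the replicate block. The number was 1595 of 13199 in 1 fit over the 4 groups, 751 with the length trend removed and 341 to 1652 without single libraries. In the interaction, the 430 genes called became 889 with DESeq2 and 129 to 1006 without single libraries. Deviations of WT and CKO libraries of the same number correlated with r from -0.34 to 0.45 in GV and 0.02 to 0.20 in ovulated oocytes. For different numbers r ran from -0.54 to 0.57 and from -0.18 to 0.08. So few values cannot settle whether the numbers pair the libraries. With the block 9 members were called in ovulated oocytes, the 8 and Dnajc15, and 2 in the interaction, Tomm40 and Tomm6. Members with few counts (Tomm5, Tomm40l, ovulated Timm22) cannot be judged at this depth.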
